A study of Mus musculus with 13 samples.

Results

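Pentraxin 3 (Ptx3) and 8 genes of the complement system were followed in C2C12 myotubes exposed to palmitoylethanolamide (PEA), an endogenous fatty acid amide. The 9 genes listed are Ptx3, C3, C4b, C1s1, C1ra, Cfb, Serping1, Cd59a and Cd55, and 8 of them were found among the 16382 genes of the deposited tables. Cfb was not analysed here. The group was chosen because the normalized count of Ptx3 was about doubled in PEA with no overlap between the treatments, so the PEA against CON contrast of Ptx3 is described below without a test. All 8 genes found passed edgeR's filter on low counts, and the rule used no value of the other 7, although the list was drawn up with earlier results of these data known.

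C2C12 is a mouse myoblast line labelled as wild type, and the cells had been differentiated to myotubes by serum reduction. The paper states that such cultures also hold unfused myoblasts, so the values describe the whole culture. The CON libraries came from myotubes given the vehicle, DMSO, and the PEA libraries from myotubes given 10 μM PEA, in both cases for 24 h from day 8 of differentiation. The series gave 6 CON and 6 PEA libraries, with PEA replicate 2 and its top-up run counted as 1 library because they share 1 set of values. All libraries come from 1 cell line. The methods describe 3 repeats of the experiment with duplicate wells as technical replicates, and which libraries share a repeat is not stated. Values of n count libraries, not repeats, so p-values measure the spread between these libraries, part of which may be technical. The tests treated libraries as independent, so p-values may be too small where wells of 1 repeat resemble each other.

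Ptx3 is a secreted long pentraxin, a soluble pattern recognition protein that many cell types release under inflammatory stimuli and that binds C1q and components of the hyaluronan matrix. In the classical pathway of complement the proteases C1r and C1s, bound to C1q, cleave C4 and C2 to form an enzyme that activates C3, the central component on which all pathways meet. C1 inhibitor, the product of Serping1, blocks C1r and C1s, while Cd55 and Cd59a encode membrane proteins that protect the cell's own surface. Most circulating complement is made by the liver, and other tissues including muscle also express components locally.

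Libraries held between 12354845 and 50397444 estimated counts, with CON replicate 1 being 2.25 times as deep as the next. The labelled cell type was checked against markers. All 10 myotube markers were present, with summed normalized counts of 81510 to 129588 in CON and 83220 to 101037 in PEA. Of 9 macrophage markers 7 were found in the tables, and they summed to 596 to 822 normalized counts in CON and 707 to 892 in PEA. Most of that sum was Cd14, at 483 to 670.5 in CON and 586 to 774 in PEA (log2 fold change 0.25, edgeR adjusted p = 0.0722), followed by Cd68 at 51.1 to 134 over all libraries. Lyz2 reached at most 20.4 and the other 4, among them the pan-leukocyte gene Ptprc with at most 5.06, stayed at or below 20 in every library. All 5 endothelial markers stayed at or below 20 normalized counts in every library. Of 7 hepatocyte markers 1 was found in the tables, Apob, whose normalized count was between 0 and 7.14. Fibroblast markers, which C2C12 cells also express, summed to 60849 to 79193 in CON and 59968 to 70456 in PEA. The sum of 5 myoblast markers was 4247 to 5709 in CON and 5327 to 6049 in PEA. By the edgeR test described below, 3 of 10 myotube markers were called lower in PEA, beside 4.74% of all genes tested, and all 10 had a log2 fold change below 0 with a median of -0.21. Called higher were 2 of 5 myoblast and 1 of 5 fibroblast markers, beside 6.31% of all genes tested. These were Mki67 (log2 fold change 1.03), Cd34 (0.24) and Dcn (0.48). The myoblast markers Pax7 (-0.02), Myf5 (0.09) and Myod1 (-0.10) were not called. Nor were the fibroblast markers Pdgfra (0.25), Col1a1 (0.23), Col3a1 (-0.12) and Lum (-0.77). The part of the marker genes in the members' values was not tested. In bulk RNA, fewer cells of a type and less RNA per cell cannot be told apart.

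The promoters of Ptx3, which chose the group, and of C3, C1ra and C1s1, the members called higher in PEA, are shown for comparison. The sequences are RefSeq's, 180 bases before to 20 bases after the most upstream listed start, 5′ to 3′ on the gene's strand. They were placed in GRCm39 by an exact and unique match. Capitals mark matches to a κB motif, at the start RefSeq lists for Ptx3, or to a C/EBP motif (TTNNGNAA), elsewhere.
Ptx3: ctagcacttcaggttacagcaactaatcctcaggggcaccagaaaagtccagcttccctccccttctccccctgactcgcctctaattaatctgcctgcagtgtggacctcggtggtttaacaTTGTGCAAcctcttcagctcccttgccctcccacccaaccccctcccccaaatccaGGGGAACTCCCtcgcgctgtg
C3: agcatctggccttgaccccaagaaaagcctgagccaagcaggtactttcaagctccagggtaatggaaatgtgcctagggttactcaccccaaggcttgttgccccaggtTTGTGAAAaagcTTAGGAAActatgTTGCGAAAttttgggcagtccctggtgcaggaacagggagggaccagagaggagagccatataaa
C1ra: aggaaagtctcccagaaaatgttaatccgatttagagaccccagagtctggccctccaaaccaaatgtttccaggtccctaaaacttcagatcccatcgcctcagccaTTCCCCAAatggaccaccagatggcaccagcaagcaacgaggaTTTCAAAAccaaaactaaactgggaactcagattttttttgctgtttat
C1s1: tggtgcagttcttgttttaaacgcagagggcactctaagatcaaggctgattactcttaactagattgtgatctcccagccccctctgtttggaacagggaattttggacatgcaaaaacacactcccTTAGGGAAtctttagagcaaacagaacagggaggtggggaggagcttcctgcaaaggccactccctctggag
The windows lie at chr3:66127128-66127327 on the + strand for Ptx3, chr17:57535117-57535316 on the - strand for C3, chr6:124489400-124489599 on the + strand for C1ra and chr6:124519299-124519498 on the - strand for C1s1. The Ptx3 window, κB match included, lies upstream of the start that GENCODE gives the gene. For C1ra and C1s1 the window lies inside the span that GENCODE gives the gene. RefSeq gave a promoter for 6 of the 8 members measured. Over 300 bases, both strands were searched for 5 motifs. The κB motif was found in Ptx3 alone among these 6 genes, as 2 overlapping matches from position -1 to 10 relative to the start, and in 8.46% of the 32851 promoters of the table. The C/EBP motif was found in Ptx3 from -57 to -50 and at 3 places in C3, from -70 to -63, from -58 to -51 and from -45 to -38. It was also present in C1ra and C1s1, and in 40.7% of all promoters. The STAT motif GAS (TTCNNNGAA), held by 8.3% of promoters, was found in C1ra from 33 to 41, outside the printed window. The interferon element ISRE (GAAA, any 2 bases, GAAA), held by 3.44%, was found in Cd59a alone, and the AP-1 motif (TGANTCA), held by 7.81%, was found in none of the 6. A match describes letters only.

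Ptx3 lies on chromosome 3 (GRCm39 66127331 to 66133226, + strand). In CON its normalized counts were 393, 478, 517, 642, 388 and 334.5 for replicates 1 to 6. In PEA they were 778, 1110, 809.5, 1224, 1035 and 1100. The lowest PEA library, replicate 1, stood above the highest CON library, replicate 4. The mean normalized count was 459 ± 111 (SD, n = 6) for CON and 1010 ± 178 (SD, n = 6) for PEA, a ratio of 2.2 and a log2 fold change of 1.15 ± 0.14 (SE). Because this contrast chose the gene, no test is given. The log2 fold change lay between 1.07 and 1.26 when any 1 library was left out. Ptx3 sits inside Veph1, a gene on the opposite strand, and the library kit named in the methods is not a directional one, so reads of both cannot be told apart. Veph1 had at most 4.2 normalized counts in any library.

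**Figure D1:**
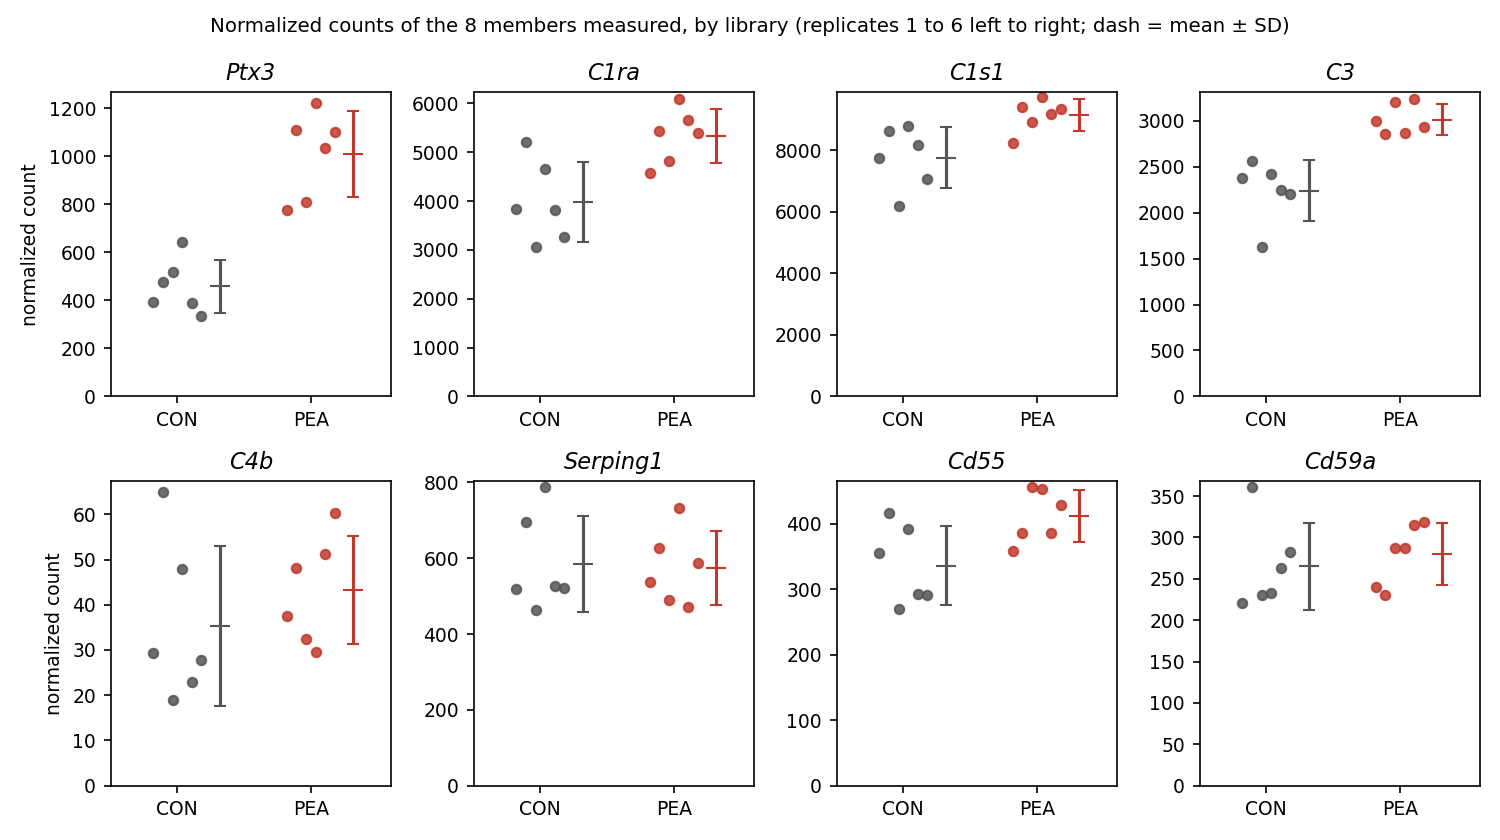
Normalized counts (vertical axes, linear from 0) of the 8 members measured, with 1 point per library for CON (grey) and PEA (red) and a dash with bars for the mean ± SD. Ptx3 (334.5 to 642 in CON, 778 to 1224 in PEA) and C3 (1624 to 2567 in CON, 2860 to 3232 in PEA) do not overlap between treatments, while the other 6 members do.

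Of the 7 other members, 3 were significantly higher in PEA (C3, C1ra and C1s1) and none was lower, with edgeR's quasi-likelihood test and Benjamini-Hochberg adjustment over 13142 genes. Over all genes tested, 11.0% were called, 6.31% as higher and 4.74% as lower in PEA. The median log2 fold change of the 7 members was 0.29, beside 0.01 for all genes tested. The members' median was 0.18 without CON replicate 3, 0.14 without CON replicates 3 and 6, and between 0.23 and 0.36 when any other library was left out. C3 was the only one of the 7 without overlap between the treatments, a property of 4.34% of all genes tested.

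The proteases of the C1 complex come first in the cascade. C1ra (chromosome 6, 124489364 to 124500402, + strand), which encodes the protease that activates C1s, had a lowest, median and highest normalized count of 3061, 3831 and 5210 in CON. In PEA these were 4569, 5418 and 6084. The treatments overlapped because CON replicates 2 and 4 exceeded the lowest PEA library. Means were 3979 ± 822 for CON and 5326 ± 553 for PEA (SD, n = 6 each). C1ra thereby rose by 0.42 ± 0.11 (SE) on the log2 scale (edgeR adjusted p = 0.0214, exact permutation p = 0.0108, two-sided), with all 6 PEA libraries above the CON median. The call was lost without CON replicate 6 (log2 fold change 0.37, edgeR adjusted p = 0.0533), without PEA replicate 4 (0.38, 0.0529) and without PEA replicate 5 (0.41, 0.0533).

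C1s1 (chromosome 6, 124507297 to 124559389, - strand) encodes C1s, which cleaves C4 and C2. Its lowest, median and highest normalized counts were 6182, 7957 and 8778 in CON. The corresponding values were 8222, 9261 and 9714 in PEA, so CON replicates 2 and 4 lay within the PEA range. C1s1 rose by 0.24 ± 0.07 (SE) on the log2 scale, with an edgeR adjusted p of 0.0467 and an exact permutation p of 0.0108. The call was close to the threshold. Of 12 fits that left out 1 library it held in 3, those without CON replicate 2, CON replicate 4 or PEA replicate 1, and adjusted p ran from 0.0189 to 0.105. C1s1 overlaps C1rb, which was not analysed here, and its paralog C1s2 stood at 239 ± 66.6 normalized counts for CON against 259 ± 22.2 in PEA (SD, n = 6 each), which did not pass the test (log2 fold change 0.12, adjusted p = 0.614). How the authors' estimation shared reads among these related genes is uncertain.

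C3 (chromosome 17, 57510964 to 57535155, - strand), the component cleaved by every convertase, had normalized counts of 2376, 2567, 1624, 2425, 2245 and 2198 in CON replicates 1 to 6. The PEA replicates gave 2994, 2860, 3201, 2863, 3232 and 2929. Every PEA library was above every CON library, and CON replicate 3 stood lowest. Mean normalized counts were 2239 ± 329 in CON and 3013 ± 165 in PEA (SD, n = 6 each). The rise was 0.43 ± 0.08 (SE) on the log2 scale (edgeR adjusted p = 0.00452), and the exact permutation p of 0.00216 is the smallest that 6 against 6 libraries can give. The call held in all 12 fits that left out 1 library, with adjusted p between 0.00059 and 0.0152.

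C4b, which encodes the C4 chain cleaved by C1s, was scarce. Its lowest, median and highest normalized counts were 18.9, 28.5 and 64.9 in CON and 29.6, 42.8 and 60.3 in PEA. The log2 fold change of 0.31 ± 0.29 (SE) did not pass the test (edgeR adjusted p = 0.540, exact permutation p = 0.247) and was about as large as its own error. It was 0.57 without CON replicate 2, 0.18 without CON replicate 3 or PEA replicate 6, and 0.08 without CON replicates 3 and 6. The near-identical C4a gave a log2 fold change of -0.20 (adjusted p = 0.716). Since reads of the pair may be split between them, the counts of both were summed, which gave 57.3 ± 19.8 in CON and 62.2 ± 13.4 in PEA (SD, n = 6 each).

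The 3 inhibitors measured did not pass the test. Serping1 (chromosome 2, 84595705 to 84620873, - strand), which encodes the inhibitor of C1r and C1s, had a lowest, median and highest normalized count of 463, 524 and 787 in CON and 472, 562 and 732 in PEA. The treatments covered nearly the same range, and the log2 fold change was -0.02 ± 0.13 (SE, edgeR adjusted p = 0.935, exact permutation p = 0.905). Its sign turned with the library left out.

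Cd55 (chromosome 1, 130366469 to 130390926, - strand), whose product speeds the decay of convertases, ran from 269 to 416 normalized counts in CON with a median of 324. In PEA it ran from 359 to 456 with a median of 408. The log2 fold change was 0.29 ± 0.11 (SE), with an edgeR adjusted p of 0.0848 and a single-gene exact permutation p of 0.0368. Without CON replicate 2, the highest CON library, the edgeR adjusted p was 0.0233. The exact permutation p was between 0.0606 and 0.0671 without CON replicate 3, 5 or 6 or PEA replicate 3, 4 or 6.

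Cd59a (chromosome 2, 103926132 to 103947029, + strand), whose product blocks assembly of the membrane attack complex, had 221, 247 and 361 normalized counts as lowest, median and highest in CON. The PEA values were 230, 288 and 319. The log2 fold change was 0.09 ± 0.12 (SE), with an edgeR adjusted p of 0.680 and an exact permutation p of 0.515. CON replicate 2 was the highest library of both treatments, and without it the log2 fold change was 0.20 (edgeR adjusted p = 0.214). It was 0.04 without CON replicate 1, between 0.05 and 0.06 without CON replicate 3 or 4 or PEA replicate 5 or 6, and 0.14 without PEA replicate 2. The paralogs Cd55b and Cd59b were not analysed here.

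**Figure D2:**
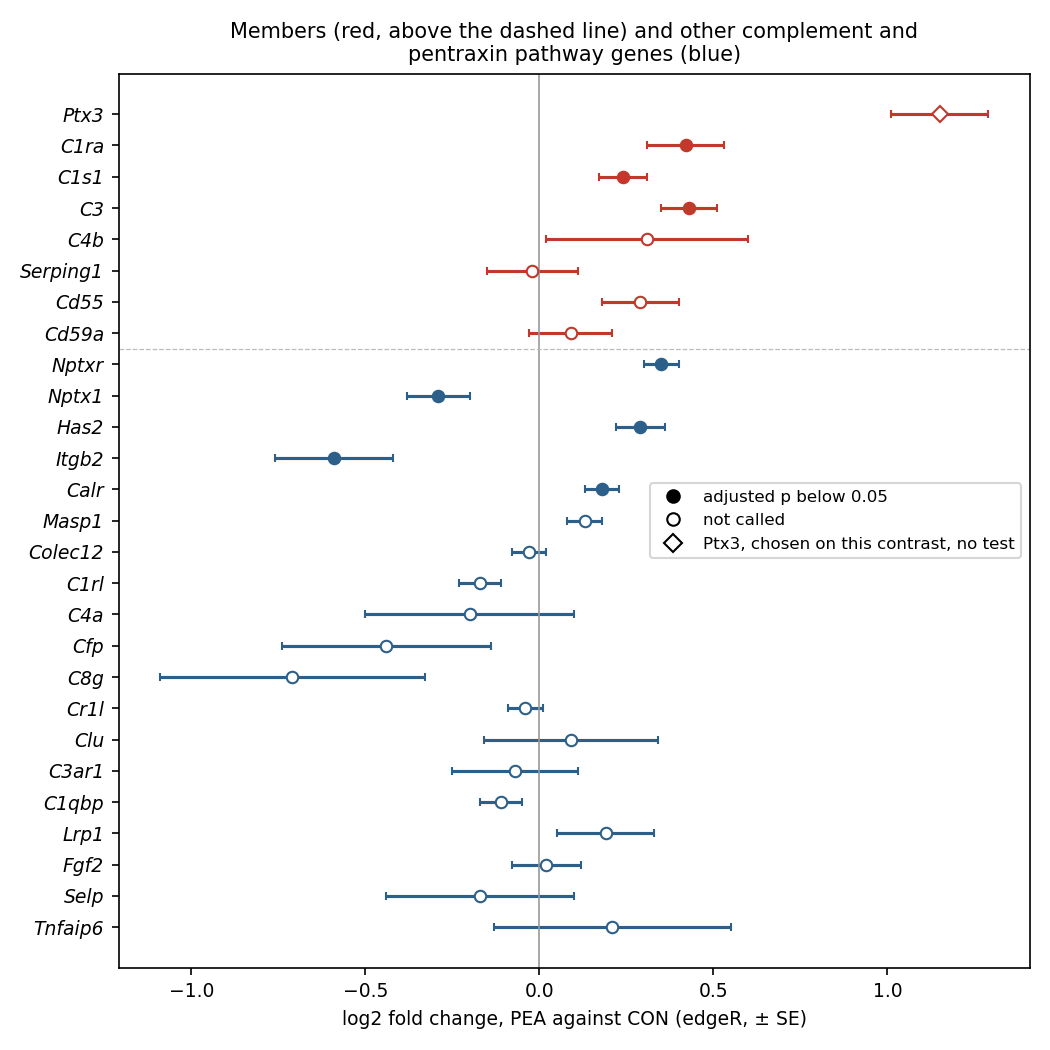
Log2 fold change of PEA against CON from edgeR (horizontal axis, bars ± SE) for the 8 members (red) and named genes of the complement and pentraxin lists (blue). Filled circles passed the adjusted threshold, open circles did not, and the diamond is Ptx3 at 1.15, which has no test because it was chosen on this contrast.

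Levels of different genes were compared per length, as CPM (estimated counts scaled to the library total after TMM normalization) per kb of exon. The order from the top was C1s1, C1ra and C3, with mean levels in CON of 117 ± 14.9, 65.1 ± 13.4 and 22.5 ± 3.31 (SD, n = 6), and each stood above the next in all 12 libraries. Serping1 and Ptx3 followed. The level of Ptx3 was above that of Serping1 in 1 of 6 CON libraries and in 6 of 6 PEA libraries. In CON the level was 8.93 ± 2.17 (SD, n = 6) for Ptx3 and 10.1 ± 2.17 (SD, n = 6) for Serping1, which do not differ beyond their spread. In PEA the levels were 19.7 ± 3.49 and 9.88 ± 1.66 (SD, n = 6). Cd55 and Cd59a were lower, with CON levels of 2.97 ± 0.535 and 2.2 ± 0.434 (SD, n = 6), and C4b was lowest in every library, with a CON level of 0.304 ± 0.152 (SD, n = 6). With the length of the canonical transcript in place of all exons, the order of Cd55 and Cd59a was reversed, with CON levels of 5.36 for Cd55 and 8.11 for Cd59a. With that length Ptx3 also came close to C3 in PEA, at mean levels of 27.8 and 30.5. C3 then did not stand above Ptx3 in every PEA library.

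**Figure D3:**
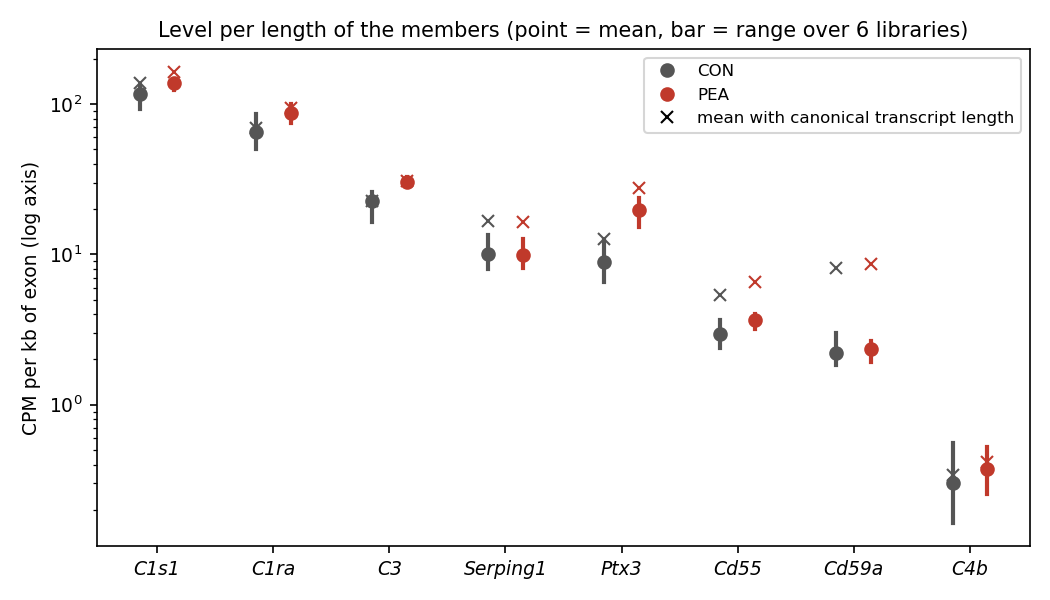
Level per length of the 8 members (vertical log axis, CPM per kb of exon), with points for the mean and bars for the range over the 6 libraries of CON (grey) and PEA (red), and crosses for the mean with the canonical transcript length. The members span from 0.304 for C4b to 117 for C1s1 in CON, and Ptx3 moves past Serping1 in PEA.

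Ratios within a library were formed for the C1 proteases against their inhibitor and against each other, chosen after the values had been seen and given without a test. The ratio of C1ra to Serping1 in level per length was between 5.65 and 7.13 in CON and between 7.92 and 11.4 in PEA, with no overlap. For C1s1 to Serping1 the means were 11.8 ± 1.4 in CON and 14.2 ± 1.98 in PEA (SD, n = 6 each), and the treatments overlapped. C1s1 to C1ra was 1.82 ± 0.172 for CON and 1.58 ± 0.0902 for PEA (SD, n = 6 each), with overlap.

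CON replicates 3 and 6 stood apart from the other CON libraries in 12 interferon response genes. They were the lowest pair of CON libraries in 12 of these 12 genes, and CON replicate 2 was the highest CON library in 12 of 12. The summed normalized count of the 12 genes was 9403 in CON replicate 3, 10186 in CON replicate 6, 25620 to 54048 in the other CON libraries and 35709 to 57196 in PEA. Log2 fold changes of the 12 genes ran from 0.51 to 1.04 with a median of 0.84, and 3 of the 12 were called higher in PEA by edgeR, beside 6.31% of all genes tested. The same pair was the lowest in CON for 4 of 5 fibroblast, 3 of 5 myoblast and 4 of 10 myotube markers. It was so for none of the macrophage, endothelial and hepatocyte markers found. Among the 8 members it was the lowest for 4, C3, C1ra, C1s1 and Cd55. It was not for Ptx3, in which CON replicate 3 had the second highest CON value. CON replicate 2 was the highest CON library for C3, C4b, C1ra, Cd59a and Cd55. The share of all genes with either pattern was not counted. Without CON replicates 3 and 6 the log2 fold change was 1.10 for Ptx3 and 0.33 for C3, which kept its call (edgeR adjusted p = 0.00163). C1ra (0.28, adjusted p = 0.0676) and C1s1 (0.14, adjusted p = 0.142) lost theirs, and Cd55 had 0.18 (adjusted p = 0.332). The part of what sets these libraries apart in the members' values was not tested.

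**Figure D4:**
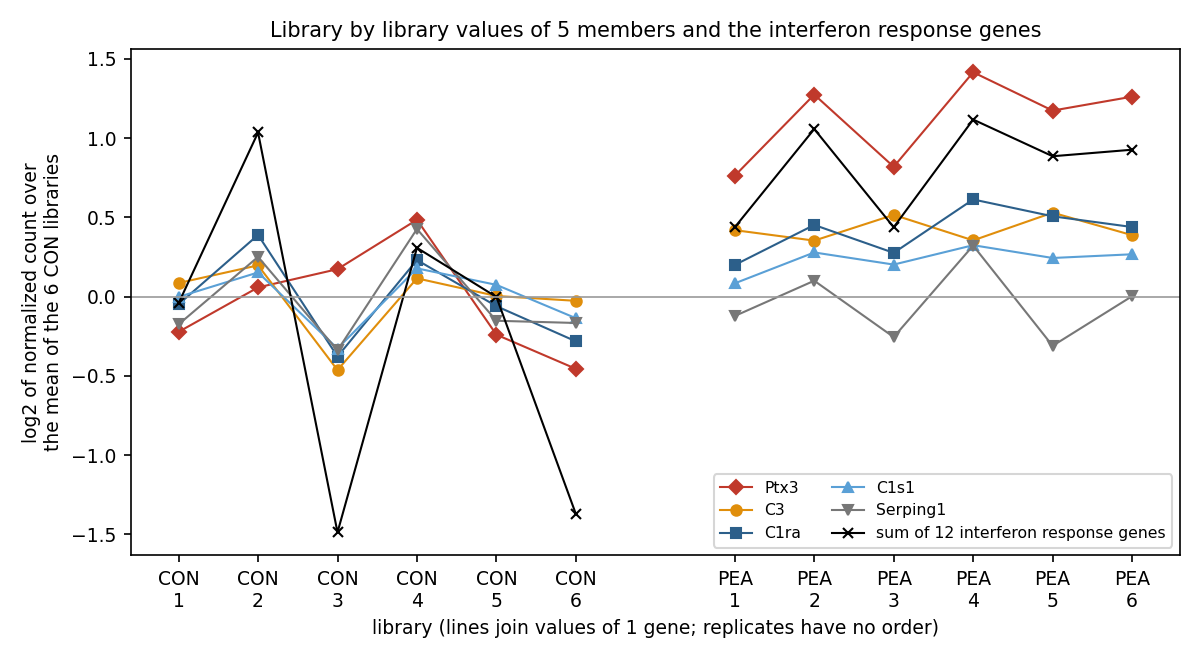
Log2 of the normalized count over the mean of the 6 CON libraries (vertical axis) in each library (horizontal axis) for 5 members and the sum of 12 interferon response genes (black). CON replicates 3 and 6 are the lowest CON libraries for the interferon sum (9403 and 10186), C3, C1ra and C1s1, while Ptx3 is above the CON mean in CON replicate 3.

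The genes whose library by library pattern was most like that of Ptx3 were sought by Pearson's r of log2 CPM over the 12 libraries, after each gene was centred on the mean of its own treatment. The 5 highest were Mdfic (r = 0.945), Rell1 (0.934), Abtb1 (0.910), Zfp874a (0.908) and Gas5 (0.904), and none was called between the treatments. They are given as a description with no test, and the points share the libraries and their depth. Among members, r to Ptx3 was 0.64 for Serping1 (rank 360 of 13142), 0.58 for C1ra, 0.41 for C1s1, 0.39 for Cd55, 0.34 for C4b, -0.02 for Cd59a and -0.15 for C3.

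The rest of the pathway was read from lists of complement initiation, convertase and terminal components, regulators, receptors, pentraxins and partners of Ptx3. Of 73 genes listed 41 were in the tables and 25 were tested, of which 3 rose, 2 fell and 20 did not pass the test, beside 6.31% higher and 4.74% lower over all genes tested, with a median log2 fold change of -0.02. The neuronal pentraxin receptor gene Nptxr rose from 971 ± 62.2 to 1234 ± 48.3 normalized counts with no overlap (SD, n = 6, log2 fold change 0.35, edgeR adjusted p = 8.59e-04). The neuronal pentraxin gene Nptx1 fell from 916 ± 118 to 747 ± 97.7 (SD, n = 6, log2 fold change -0.29, edgeR adjusted p = 0.0497). Has2, a hyaluronan synthase whose product is organised with Ptx3 in matrix, rose by 0.29 on the log2 scale (adjusted p = 0.0166). Calr, which encodes calreticulin, a binder of C1q, rose by 0.18 (adjusted p = 0.0370). Itgb2, the beta chain of the leukocyte complement receptors, fell by 0.59 on the log2 scale (adjusted p = 0.0332), from 136 ± 14.8 to 90.6 ± 24.4 normalized counts (SD, n = 6). Nptxr and Has2 were called in 12 of 12 fits that left out 1 library, Itgb2 in 7 (edgeR adjusted p 0.0218 to 0.0749), Calr in 4 (0.0118 to 0.0911) and Nptx1 in 4 (0.0156 to 0.111). Without CON replicates 3 and 6, which leaves 4 CON libraries, Has2 (log2 fold change 0.27, adjusted p = 0.0525), Itgb2 (-0.60, 0.0728) and Calr (0.14, 0.12) were not called, the first 2 with nearly the same log2 fold change.

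None of the 5 tested genes of the initiation list passed the test, and 3 more in the tables, Masp2, Fcna and Colec11, were too scarce to be tested. Masp1, a protease of the lectin pathway, stood at 5801 ± 221 normalized counts for CON against 6358 ± 535 in PEA (SD, n = 6 each). Its log2 fold change was 0.13 (edgeR adjusted p = 0.117), and it was called only when PEA replicate 1 was left out. Colec12 had a log2 fold change of -0.03 and C1rl one of -0.17 (edgeR adjusted p = 0.0752). The 3 tested genes of the convertase and terminal list, C4a, Cfp and C8g, had at most 36.5 normalized counts in any library. Their log2 fold changes were -0.20, -0.44 and -0.71, all without a call. Among regulators, the log2 fold change was -0.04 for Cr1l and 0.09 for Clu. The receptor genes Lrp1, C1qbp and C3ar1 had log2 fold changes of 0.19, -0.11 and -0.07, and the Ptx3 partners Fgf2, Selp and Tnfaip6 had 0.02, -0.17 and 0.21, all without a call.

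Ptx3 and C3 are also induced in the acute phase response, so its genes were read beside them. Of 20 listed 15 were in the tables and 10 were tested, with 1 higher and none lower in PEA and a median log2 fold change of 0.26. Beside this 1 of 10, 11.0% of all genes tested were called, and the count was 3 with DESeq2, with the replicate block or without CON replicate 4. The gene called was Cp, which encodes the copper carrier ceruloplasmin, from 1319 ± 125 to 1575 ± 98.6 normalized counts (SD, n = 6; log2 fold change 0.26, edgeR adjusted p = 0.0152). Saa3, a serum amyloid A gene, had 1371 ± 490 in CON and 1522 ± 200 in PEA (SD, n = 6 each, log2 fold change 0.16, adjusted p = 0.587). Orm1 (0.29, adjusted p = 0.269) and Lcn2 (0.47, adjusted p = 0.153) did not pass the test either. The genes nearest to the threshold among those not called, named after their values were seen, lay in opposite directions, Serpina3n at -0.37 (adjusted p = 0.0687) and Hp at 0.68 (adjusted p = 0.0841).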

How the data were processed

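RNA-seq libraries of C2C12 myotubes, 6 CON and 6 PEA, were read from 2 tables. The submitters' processing notes name Partek Flow, STAR 4.4.1d, mm39 and DESeq2. The authors deposited estimated counts per Ensembl gene (expectation-maximization, 45% of those above 0 not whole within 0.001) and, as a signal on a linear scale, the same counts after median-ratio normalization, here called normalized counts. The kit selected poly-A RNA. The members and gene lists were chosen with earlier results of these data known.

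Estimated counts were rounded and tested with edgeR 4.0.16 (quasi-likelihood, TMM, default filter, 13142 genes, adjusted p threshold 0.05) in R 4.3.3. The biological coefficient of variation was 0.106, and the median library held 18420606 counts. SE was derived from the test statistic. Errors hold counting noise and variation among libraries only. For single genes, log2(normalized count + 1) entered an exact permutation test (two-sided, 924 assignments), with a smallest possible p of 0.00216. Levels per length used exon unions of GENCODE vM39 (GRCm39), which named 16343 of 16382 identifiers.

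Named genes are all members and their paralogs, listed genes that passed the threshold (at most 12), the 3 not called with the highest level per length in each list, and the 5 most like Ptx3. One gene that this rule names is not reported here. Motif matches used RefSeq promoters (build GRCm38.p6) with Python 3.11.15. Alternatives were DESeq2 1.42.0, limma-voom (limma 3.58.1), median-of-ratios size factors, no filter, at least 10 counts in every library, unrounded or thinned counts, limma on normalized counts, a replicate block, other pseudocounts, canonical lengths and leaving out libraries.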

Additional observations from a re-analysis of the deposited data

Results flagged for a closer look

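Among the genes read here, 64 groups of 6 libraries were searched for a single library far from the others by a test that flags about 1 in 20 groups by chance, and 2 stood out. C3ar1, the receptor gene of the C3a fragment, had 66.85 normalized counts in CON replicate 3, above the other CON libraries. Lcn2, an acute phase gene, had 412.3 normalized counts in CON replicate 4, above the other CON libraries. No member met this criterion.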

How the results depend on the processing

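C3 was called under all 9 alternatives that kept every library and in 12 of 12 that left out 1, and Ptx3 had a log2 fold change of 1.14 to 1.19 over the former. The members called numbered 1 (C3) without CON replicates 3 and 6 and between 1 and 4 when 1 library was left out, the latter without CON replicate 2, which added Cd55. Thinning all libraries to the smallest total left C1ra and C3 called, with an edgeR adjusted p of 0.0516 for C1s1. That loss depended on the random draw, since over 20 draws, added after the data had been seen, C3 and C1ra were called in 20 and C1s1 in 12 (adjusted p 0.0377 to 0.0654). Pathway genes called numbered 2 (Nptx1 and Nptxr) without CON replicates 3 and 6 between 2 and 6 when 1 library was left out, and 3 after thinning. Acute phase genes called numbered 3 with DESeq2 (Cp and Hp higher, Serpina3n lower), 2 with limma-voom (Cp and Lcn2, higher), 3 with the replicate block (Cp, Hp and Lcn2, higher), 2 without CON replicates 3 and 6 (Cp higher, Serpina3n lower), and between 1 and 3 when 1 library was left out, with 3 (Cp, Hp and Lcn2, higher) without CON replicate 4 and 2 (Cp higher, Serpina3n lower) without CON replicate 3 or PEA replicate 3. The causes were not tested. Serping1 had a log2 fold change of 0.01 with limma-voom and between -0.10 and 0.08 when 1 library was left out, with exact permutation p between 0.556 and 0.989.

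Canonical lengths moved the mean level per length over 12 libraries to 20.2 for Ptx3, 151 for C1s1, 16.5 for Serping1, 8.35 for Cd59a and 5.97 for Cd55. Replicate numbers did not pair the libraries, since the correlation of deviations at the same number ran from -0.081 to 0.063. With the replicate number as a block, 3 members and 4 pathway genes were called. C4b had the lowest estimated counts of the members and the largest SE.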
